A study of Mus musculus with 6 samples.

Results

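The genes that decide whether a cell leaves G1 and starts to copy its DNA were examined in 4T1 cells, a mouse mammary carcinoma line, with and without METTL7A1. The set comprised 10 genes chosen by name from the 48587 genes of the deposited table: the D-type cyclins Ccnd1, Ccnd2 and Ccnd3, the E-type cyclins Ccne1 and Ccne2, the kinases Cdk4 and Cdk6, the inhibitors Cdkn1b (p27) and Cdkn2b (p15), and the retinoblastoma gene Rb1. Total RNA depleted of ribosomal RNA was sequenced from 3 libraries of METTL7A1 cells and 3 libraries of mock cells, described as biological triplicates. METTL7A1 cells were 4T1 cells stably transfected with full-length Mettl7a1 cDNA in the vector pBICEP-CMV-2, which carries the CMV promoter. Mock cells had received the empty vector, and both groups grew under the same G418 selection. The sources do not state whether a line was a single clone or a pool, or whether the triplicates came from separate transfections. If they did not, a difference between the transfected lines and an effect of METTL7A1 cannot be told apart.

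METTL7A1 is a putative methyltransferase, and the study asked whether its expression alters the transcriptome of tumour cells whose colony formation and migration it had measured. In G1, mitogens raise the D-type cyclins, which bind and activate CDK4 and CDK6. These kinases phosphorylate the RB protein, which then releases the E2F transcription factors, and E2F raises cyclin E, the partner of CDK2, together with the enzymes of DNA replication. The INK4 inhibitors, p15 among them, block CDK4 and CDK6 directly, whereas the Cip/Kip inhibitors p27 and p21 act mainly on cyclin E-CDK2. In mammary epithelium cyclin D1 is the D-type cyclin best known for driving growth, and its gene is amplified in many breast tumours.

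Library totals lay between 18386780 and 28459338 counts. Mettl7a1 checked the labels: it had 342.5, 384.5 and 421.6 cpm (counts relative to the TMM-scaled library size) in METTL7A1 replicates 1 to 3 and 1.64, 1.24 and 1.17 cpm in mock replicates 1 to 3. AY036118, a transcript of the ribosomal repeat, varied widely between libraries, from 92294 counts in METTL7A1 replicate 1 to 2665015 in mock replicate 1. All 7 markers of mammary epithelium were detected, with sums of 1814 to 2197 cpm in mock and 1998 to 2377 cpm in METTL7A1 libraries. Leukocyte, endothelial and adipocyte markers held at most 8, 16 and 2 counts in any library, and Cd3e was at 0. Of 3 fibroblast markers Pdgfrb and Dcn held at most 3 counts, while Pdgfra held 316 to 766, so that the sum of the list was 16.7 to 19.2 cpm in mock and 23.2 to 26.04 cpm in METTL7A1 libraries. The part of this marker in the results below was not tested.

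Promoters from RefSeq (build GRCm38.p6) were matched for 6 of the 10 genes, as 300 bases that span the start of transcription. Those of Ccnd1, Ccnd2, Ccne2 and Rb1 were not used here. The promoters of the kinase pair Cdk4 and Cdk6 and of Ccne1, the cyclin that was higher in METTL7A1 cells, are printed 5′ to 3′ because they differ in how many E-boxes, E2F elements and GC boxes they hold. Motifs were searched on both strands: the E-box CACGTG, the element of MYC and related factors, the E2F element TTTNNCGC and the GC box GGGCGG. Capitals mark the E-boxes in Cdk4 (chr10:127063285-127063584, plus strand) and Cdk6 (chr5:3343643-3343942, plus strand), and the GC boxes, which read CCGCCC on the other strand, in Ccne1 (chr7:38107441-38107740, minus strand).
Cdk4: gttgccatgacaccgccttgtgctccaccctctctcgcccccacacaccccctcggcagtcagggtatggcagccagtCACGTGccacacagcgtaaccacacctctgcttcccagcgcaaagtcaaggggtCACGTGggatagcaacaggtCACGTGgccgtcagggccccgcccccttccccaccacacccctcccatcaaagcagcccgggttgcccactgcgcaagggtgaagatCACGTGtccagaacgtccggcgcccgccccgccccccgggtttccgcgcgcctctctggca
Cdk6: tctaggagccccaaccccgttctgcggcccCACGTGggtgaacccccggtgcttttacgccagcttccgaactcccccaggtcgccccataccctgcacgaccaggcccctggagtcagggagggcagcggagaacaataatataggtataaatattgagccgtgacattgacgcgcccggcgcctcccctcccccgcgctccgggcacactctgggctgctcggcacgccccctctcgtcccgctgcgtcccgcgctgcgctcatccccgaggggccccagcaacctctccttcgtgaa
Ccne1: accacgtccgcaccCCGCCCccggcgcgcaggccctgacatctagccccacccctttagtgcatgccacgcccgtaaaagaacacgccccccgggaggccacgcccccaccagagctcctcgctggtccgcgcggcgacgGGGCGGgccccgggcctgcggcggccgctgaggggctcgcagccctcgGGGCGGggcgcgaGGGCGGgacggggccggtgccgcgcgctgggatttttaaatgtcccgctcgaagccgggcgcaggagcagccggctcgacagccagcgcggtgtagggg
The Cdk4 promoter held 4 E-boxes and the Cdk6 promoter 1. Over 32851 mouse promoters of the same length, 7.15% held at least 1 E-box and 0.0244% held 4 or more. The Cdk6 promoter also held 1 E2F element, which 5.17% of promoters had. The Ccne1 promoter held 4 GC boxes and no E-box, the Cdk4 promoter also held 3 GC boxes, left unmarked, and the Cdk6 promoter none. Of all promoters 35.7% held at least 1 GC box and 5.49% held 4 or more. A match to these letters describes the sequence only.

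Of the 10 genes, 9 passed the abundance filter of at least 1 cpm in at least 3 libraries, and Cdkn2b did not. A gene was called when its Benjamini-Hochberg adjusted p over all 13166 tested genes was under 0.05 in edgeR's quasi-likelihood test, from which every adjusted p below comes unless another test is named. Calls were common in this comparison: 42.1% of all tested genes were called, and 51.6% had METTL7A1 libraries all on one side of the mock libraries. Among the 9 tested G1 genes 3 were called (33.3%) and 5 had groups that did not overlap, so the set as a whole did not stand out from the rest of the transcriptome by its count. Ccnd2 and Ccne2 were lower in METTL7A1 cells and Ccne1 was higher, against 21.0% of all genes called lower and 21.1% called higher. None of the 9 passed the thresholds of the study (adjusted p under 0.01 and a log2 fold change beyond 1.5 in either direction), which 2.48% of all genes did. Their median log2 fold change, METTL7A1 over mock, was 0.04, compared with -0.03 over all tested genes.

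**Figure D1:**
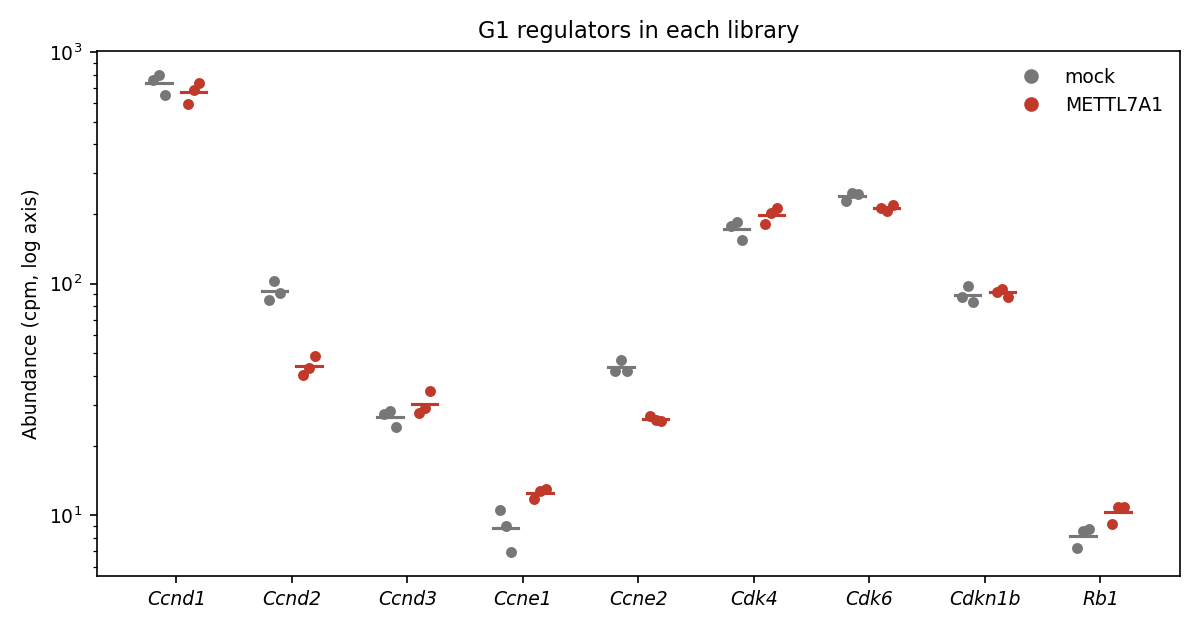
Abundance of 9 G1 regulators in each library, in cpm on a log axis, with points for libraries and bars for group means (grey, mock; red, METTL7A1; n = 3 each). The groups lie apart for Ccnd2, Ccne1, Ccne2, Cdk6 and Rb1; Ccnd2 lies between 40.4 and 48.6 cpm in METTL7A1 and between 84.7 and 102.5 cpm in mock libraries. Cdkn2b had no counts and is not drawn.

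The D-type cyclins were present at very different levels, and of the 3 only Ccnd2 was called. Ccnd1 (chr7:144929931-144939869, mm10) was the most abundant, with 598.6, 683.1 and 734.6 cpm in METTL7A1 replicates 1 to 3 and 761.2, 799.3 and 655.5 cpm in mock replicates 1 to 3. These ranges overlapped. The log2 fold change of Ccnd1 was -0.14 with a standard error (SE) of 0.11 and a 95% interval from -0.37 to 0.10 (edgeR, Benjamini-Hochberg adjusted p = 0.329), so a change of more than 0.37 on the log2 scale in either direction lay outside the interval.

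Ccnd2 (chr6:127125162-127151060) had 40.4, 43.4 and 48.6 cpm in METTL7A1 replicates 1 to 3. In mock replicates 1 to 3 it had 84.7, 102.5 and 91.5 cpm. Every METTL7A1 library lay below every mock library, and the highest of them did not reach 50 cpm. The mean fell from 92.9 ± 8.99 to 44.1 ± 4.13 cpm (SD, n = 3), which is 2.10-fold lower, with a log2 fold change of -1.07 (SE 0.09, edgeR, Benjamini-Hochberg adjusted p = 7.44e-06). This was the largest change among the 9 tested G1 genes. Over 14 alternative analyses, which included leaving out each library, the log2 fold change of Ccnd2 stayed between -1.14 and -0.95 and the call was kept in each.

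Ccnd3 (chr17:47505051-47599691), which is often prominent in lymphoid cells, had 27.5, 29.1 and 34.4 cpm in METTL7A1 replicates 1 to 3 and 27.4, 28.3 and 24.2 cpm in mock replicates 1 to 3. The ranges overlapped, and the log2 fold change was 0.19 (SE 0.10, 95% interval -0.03 to 0.41, edgeR, Benjamini-Hochberg adjusted p = 0.155). Without METTL7A1 replicate 1 Ccnd3 was called at 0.26 (edgeR, Benjamini-Hochberg adjusted p = 0.0499).

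The 2 E-type cyclins, which bind the same kinase, CDK2, moved in opposite directions. Ccne1 (chr7:38097984-38107534) had 11.8, 12.7 and 13.0 cpm in METTL7A1 replicates 1 to 3 and 10.5, 8.996 and 6.96 cpm in mock replicates 1 to 3. The groups did not overlap, and the libraries numbered 1 lay nearest to each other. The mean rose from 8.82 ± 1.77 to 12.5 ± 0.614 cpm (SD, n = 3), which is 1.43-fold higher, with a log2 fold change of 0.51 (SE 0.14, edgeR, Benjamini-Hochberg adjusted p = 0.0140). The call of Ccne1 was lost without METTL7A1 replicate 2 (0.50, edgeR, Benjamini-Hochberg adjusted p = 0.0519), and over all 14 alternatives its log2 fold change ran from 0.38 to 0.66 with adjusted p from 0.000461 to 0.0519.

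Ccne2 (chr4:11191354-11204779) had 26.9, 25.8 and 25.5 cpm in METTL7A1 replicates 1 to 3 and 42.2, 46.6 and 41.8 cpm in mock replicates 1 to 3. The gap between the groups was much wider than the spread within either. Ccne2 fell from 43.5 ± 2.69 to 26.1 ± 0.745 cpm (SD, n = 3), which is 1.67-fold lower, with a log2 fold change of -0.74 (SE 0.08, edgeR, Benjamini-Hochberg adjusted p = 2.59e-05). The log2 fold change lay between -0.76 and -0.52 in all 14 alternatives and the call was kept in each.

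The 2 kinases that the D-type cyclins activate were both abundant, and neither was called. Cdk4 (chr10:127063534-127067920) had 181.8, 202.8 and 212.2 cpm in METTL7A1 replicates 1 to 3 and 178.2, 184.2 and 153.7 cpm in mock replicates 1 to 3. METTL7A1 replicate 1 fell within the mock range. The log2 fold change of Cdk4 was 0.21 (SE 0.09, 95% interval 0.01 to 0.41, edgeR, Benjamini-Hochberg adjusted p = 0.0795). It was called as higher without METTL7A1 replicate 1 (0.28, edgeR, Benjamini-Hochberg adjusted p = 0.0153), with upper quartile scaling (0.22), without an abundance filter (0.25) and with DESeq2 (0.22).

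Cdk6 (chr5:3343893-3531008) had 213.2, 206.1 and 218.9 cpm in METTL7A1 replicates 1 to 3 and 227.4, 247.4 and 242.8 cpm in mock replicates 1 to 3. The METTL7A1 libraries all lay below the mock libraries, by a small margin. The log2 fold change of Cdk6 was -0.17 (SE 0.07, 95% interval -0.33 to -0.01) and missed the threshold (edgeR, Benjamini-Hochberg adjusted p = 0.0759). With DESeq2 it was called at -0.17 (Benjamini-Hochberg adjusted p = 0.0487).

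Of the inhibitors, Cdkn1b encodes p27, which binds cyclin E-CDK2 and holds cells in G1. Cdkn1b (chr6:134920401-134925513) had 92.3, 94.9 and 88.0 cpm in METTL7A1 replicates 1 to 3 and 87.4, 97.3 and 83.0 cpm in mock replicates 1 to 3. The METTL7A1 values all fell inside the mock range. Its log2 fold change was 0.04 (SE 0.08, edgeR, Benjamini-Hochberg adjusted p = 0.709) with a 95% interval from -0.13 to 0.21, and it was -0.0025 without mock replicate 3. Cdkn1b and Ccnd2 lie on the same chromosome, and their medians over the 40 nearest abundant neighbours were -0.04 and -0.13.

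Cdkn2b (chr4:89306289-89311032), the p15 gene, had 0 counts in all 6 libraries, which at these depths leaves room for at most 0.102 to 0.164 cpm (a floor of 3 counts that covers counting error only). Cdkn2a, whose locus yields p16 and ARF and which lies 31.8 kb before Cdkn2b (distances are between the lowest coordinates of genes), also had 0 counts in every library. Mtap, the methionine salvage gene that lies 169 kb before Cdkn2b, held 6680 to 11400 counts and had a log2 fold change of 0.03 (SE 0.09, edgeR, Benjamini-Hochberg adjusted p = 0.834). On the other side Dmrta1, 382 kb after Cdkn2b, held at most 2 counts. The stretch between Mtap and Dmrta1 thus held little RNA in both groups, and counts of RNA do not tell a silent gene from an absent one. A difference in either INK4 gene between METTL7A1 and mock cells was not detectable at this depth.

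**Figure D2:**
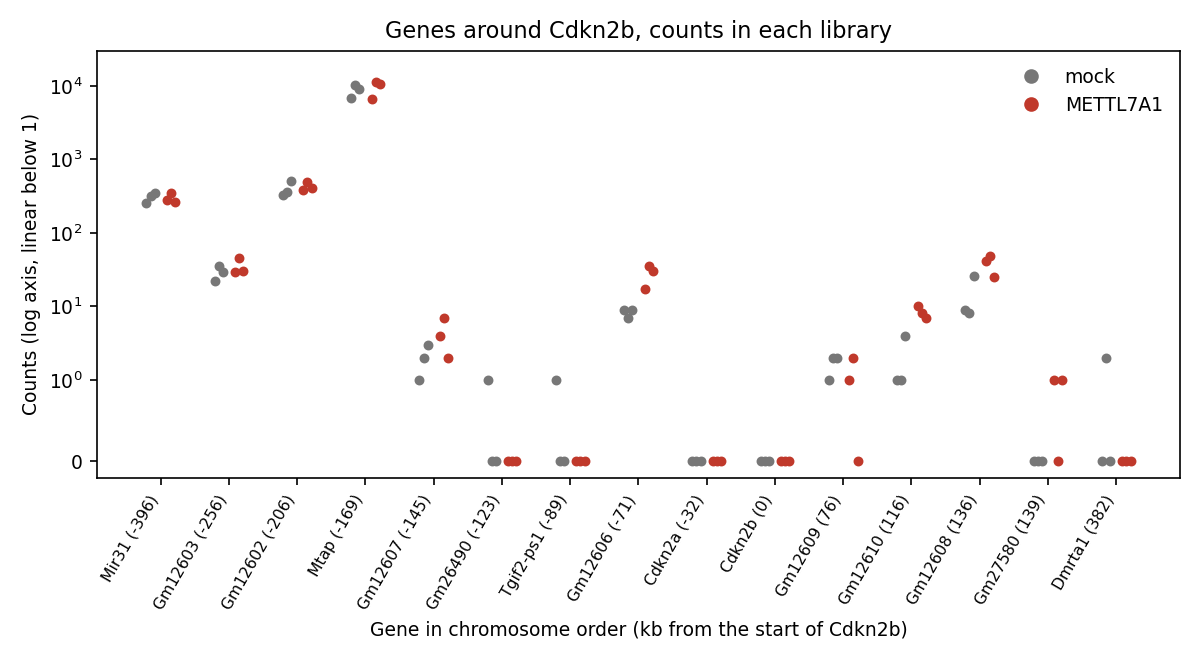
Counts in each library (grey, mock; red, METTL7A1) for 15 genes in chromosome order around Cdkn2b, on a log axis that is linear below 1, with the distance in kb from Cdkn2b, between lowest coordinates, in brackets. Mtap holds 6680 to 11400 counts, while Cdkn2a and Cdkn2b hold 0 in all 6 libraries.

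Rb1, which encodes the target of the cyclin D kinases, had the lowest level of the genes that passed the filter. Rb1 (chr14:73195502-73325822) had 9.22, 10.9 and 10.9 cpm in METTL7A1 replicates 1 to 3 and 7.22, 8.58 and 8.74 cpm in mock replicates 1 to 3. All METTL7A1 libraries lay above all mock libraries. The log2 fold change was 0.34 (SE 0.13, 95% interval 0.06 to 0.61) and just missed the threshold (edgeR, Benjamini-Hochberg adjusted p = 0.0512). Rb1 was called without METTL7A1 replicate 1 (0.42) and without mock replicate 3 (0.40), with edgeR Benjamini-Hochberg adjusted p of 0.0272 and 0.0358. Over all 14 alternatives the adjusted p of Rb1 ran from 0.00408 to 0.195.

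Each gene was also read against the median log2 fold change of its 40 nearest abundant neighbours on the chromosome, which differed from gene to gene. For Cdk4 this median was 0.57, well above its own 0.21, and for Rb1 it was -0.27 against its own 0.34. Used as an offset, it turned Cdk4 to -0.36 (edgeR, Benjamini-Hochberg adjusted p = 0.0109) and moved Rb1 to 0.60 (edgeR, Benjamini-Hochberg adjusted p = 0.00408). The direction of Cdk4 therefore depended on the scale it was read on. For the other 7 tested genes the neighbour medians lay between -0.23 and -0.04. With the offset 5 of the 9 were called: Ccnd2 (-0.95), Ccne2 (-0.52) and Cdk4 lower, Ccne1 (0.65) and Rb1 higher. Over all genes the same fit called 4147 of 13166 (31.5%), 18.1% higher and 13.4% lower. The offset takes the neighbour median as known, so its own error is not in these p values.

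**Figure D3:**
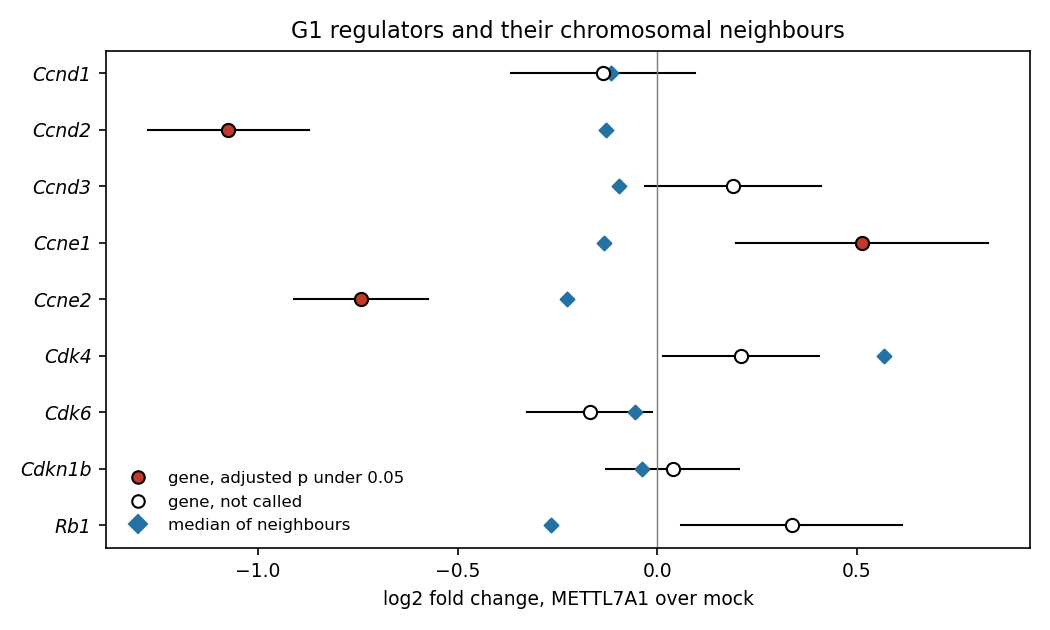
Log2 fold change, METTL7A1 over mock, of the 9 tested G1 regulators with 95% intervals (circles; red, adjusted p under 0.05; white, not called) and the median of the 40 nearest abundant neighbours of each gene (blue diamonds). Cdk4 lies at 0.21 below its neighbours at 0.57, and Rb1 lies at 0.34 above its neighbours at -0.27.

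Levels of different genes were compared per length, as cpm per kb of exon (RPKM), with the exon length of the table. In mock cells the order was Ccnd1 (198 RPKM), Cdk4 (83.8), Cdk6 (20.8), Cdkn1b (19.6), Ccnd2 (13.8), Ccne2 (13.6), Ccnd3 (10.9), Ccne1 (4.41) and Rb1 (1.76), with Cdkn2b at 0. The ranges of Cdk6 and Cdkn1b overlapped, as did those of Ccnd2 and Ccne2, and the other neighbours in this order did not. In METTL7A1 cells Ccnd1 (180 RPKM) and Cdk4 (96.9) again led, and Cdkn1b (20.2), Cdk6 (18.5), Ccnd3 (12.4), Ccne2 (8.14), Ccnd2 (6.58), Ccne1 (6.25) and Rb1 (2.22) followed. Among neighbours in that order only Ccnd2 and Ccne1 had ranges that overlapped. Ccnd2 had thus moved, per length, from the second to the third place among the D-type cyclins, behind Ccnd3. This place depends on the exon lengths used, 6711 bases for Ccnd2 and 2447 for Ccnd3. In cpm the mean of Ccnd2 in METTL7A1 cells (44.1) stayed above that of Ccnd3 (30.3).

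The composition of each family was then read as the share of each paralogue in the family sum per length, in each library. These shares and sums gave 8 exact permutation tests (two-sided), and 3 against 3 libraries cannot give a p below 0.1, so that no test could pass 0.05. Ccne1 made up 41.3%, 44.1% and 44.9% of E-type cyclin transcripts in METTL7A1 replicates 1 to 3 and 28.5%, 23.6% and 21.0% in mock replicates 1 to 3. The groups were far apart: the mean share was 24.4 ± 3.79% in mock and 43.4 ± 1.91% in METTL7A1 cells (SD, n = 3), a difference of 19.0 percentage points (exact permutation p = 0.1, 0.133 adjusted over the 8 tests). The sum of both E-type cyclins was 18.01 ± 1.31 RPKM in mock and 14.4 ± 0.0740 RPKM in METTL7A1 cells (SD, n = 3; exact permutation p = 0.1, 0.133 adjusted).

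Ccnd1 held 88.8 ± 0.674% of D-type cyclin transcripts in mock and 90.5 ± 0.368% in METTL7A1 cells (SD, n = 3). The share of Ccnd2 was 5.55%, 6.35% and 6.86% in mock replicates 1 to 3 and 3.40%, 3.22% and 3.33% in METTL7A1 replicates 1 to 3. That of Ccnd3 was 4.93%, 4.81% and 4.97% in mock and 6.35%, 5.91% and 6.46% in METTL7A1 replicates 1 to 3. None of these 3 shares overlapped between the groups (exact permutation p = 0.1 for each, 0.133 adjusted). The 3 shares make up the whole in each library, so they are not separate results. Each share depends on the levels of all 3 genes, of which only Ccnd2 was called. Mean RPKM in mock and METTL7A1 cells was 198 and 180 for Ccnd1, 13.8 and 6.58 for Ccnd2, and 10.9 and 12.4 for Ccnd3. The D-type sum, which is mostly Ccnd1, was 222 ± 21.3 RPKM in mock and 199 ± 20.3 RPKM in METTL7A1 cells (SD, n = 3; exact permutation p = 0.3). Cdk4 made up 80.1 ± 1.80% of the Cdk4 and Cdk6 transcripts in mock and 84.0 ± 1.08% in METTL7A1 cells (SD, n = 3; exact permutation p = 0.1, 0.133 adjusted), again without overlap. From counts not divided by length the differences were 3.99 percentage points for Ccnd1 and 6.49 for Cdk4, against 1.61 and 3.88 per length. The difference for Ccne1 was smaller from such counts, at 15.6 percentage points against 19.0 per length. The sum of the 2 kinases was 105 ± 7.81 and 115 ± 7.73 RPKM (SD, n = 3; exact permutation p = 0.2, 0.229 adjusted).

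**Figure D4:**
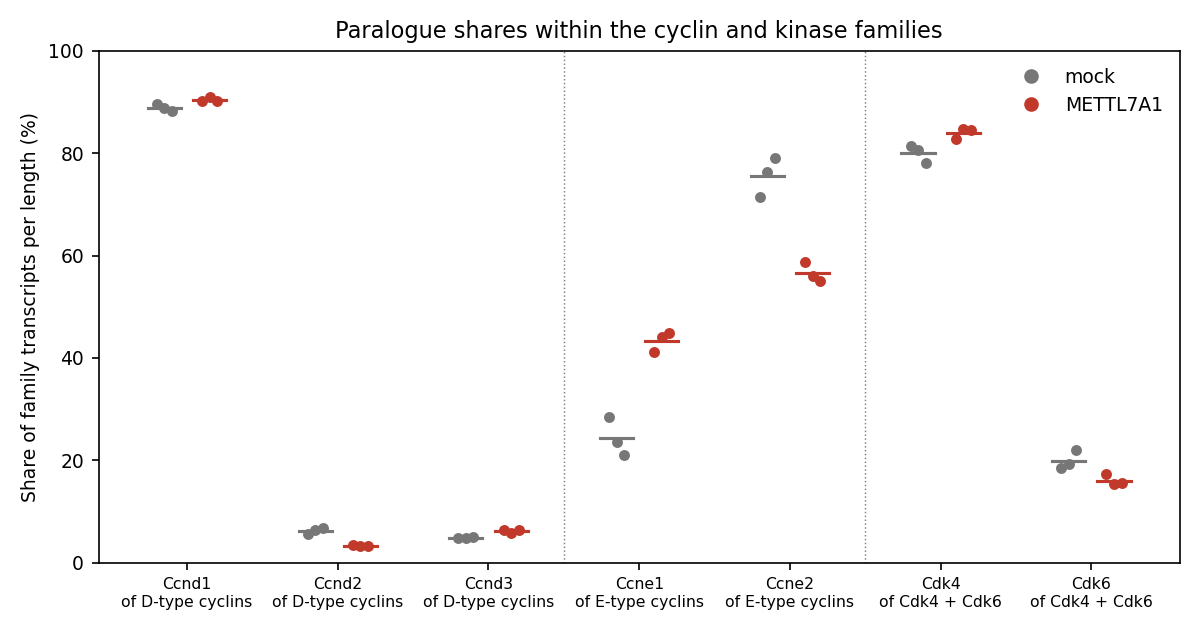
Share of each paralogue in its family, in percent of the family sum of counts per kb of exon, in each library (points) with group means (bars; grey, mock; red, METTL7A1; n = 3). The mean share of Ccne1 is 24.4% in mock and 43.4% in METTL7A1 cells, and that of Ccnd1 is 88.8% and 90.5%.

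Each member was checked for sequence shared with other genes. No member overlapped an exon of another gene on the same strand, and 7 overlapped exons of a gene on the opposite strand, the largest being Cdk4 with Tspan31 (29.4% of its exon length) and Ccnd1 with Oraov1 (21.9%). Of the stretches of 31 bases in the members' transcripts at most 4.32% occurred in another gene. That was Ccnd3, mostly with the pseudogene Ccnd3-ps, which held 2 to 13 counts.

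The genes whose pattern over the 6 libraries was nearest to that of Ccnd2, the called member with the largest change, were Zfp667, Crip1 and RP23-220F20.2. Likeness was the root mean square distance of log2 cpm after centring each gene on its mean, and these distances were 0.04, 0.04 and 0.06 on the log2 scale. The 3 genes had log2 fold changes of -1.17, -1.04 and -1.13. In all 12 genes lay within 0.1 of Ccnd2, on a measure that the difference between 2 groups of 3 largely sets.

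The rest of the G1 pathway was followed in 32 further genes, of which 30 were tested and 15 called (50%, against 42.1% of all genes), 9 higher and 6 lower in METTL7A1 cells. Their median log2 fold change was 0.09 and none passed the thresholds of the study. With the neighbour offset 8 of the 30 were called (26.7%, against 31.5% of all genes), so that the count lay near the background in both fits. As the RNA was taken from bulk cultures, fewer cells in a given phase and less RNA per cell cannot be told apart.

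Among 5 further inhibitors 3 were tested and 1 was called, where 42.1% of all genes were. This was Cdkn1a, the p53 target that encodes p21. It had 7.92, 9.11 and 10.2 cpm in METTL7A1 replicates 1 to 3 and 5.08, 6.85 and 6.04 cpm in mock replicates 1 to 3. The groups did not overlap, and Cdkn1a rose by 0.60 on the log2 scale (SE 0.15, edgeR, Benjamini-Hochberg adjusted p = 0.00800). Cdkn2c (0.09, SE 0.08) and Cdkn2d (0.30, SE 0.13), the INK4 genes with counts, were not called (edgeR, Benjamini-Hochberg adjusted p = 0.375 and 0.0796). Cdkn1c, the p57 gene, held at most 0.108 cpm in any library and was not tested, and Cdkn2a was at 0 as described above.

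Of 10 genes of the pocket protein and E2F group, 7 were called, where 42.1% of all genes were, too few genes to read the count as a result about the group. E2f6, a repressive E2F that acts without pocket proteins, fell from 38.45 ± 1.95 to 16.8 ± 0.617 cpm (SD, n = 3). With 16.2, 16.9 and 17.4 cpm in METTL7A1 and 40.02, 39.1 and 36.3 cpm in mock replicates 1 to 3 its groups lay far apart. Its log2 fold change was -1.19 (SE 0.08, edgeR, Benjamini-Hochberg adjusted p = 1.23e-06), and -0.73 with the neighbour offset. E2f4, the E2F that pairs with pocket proteins in resting cells, fell by 0.42 and E2f1, an activator, rose by 0.41 on the log2 scale, with SE of 0.06 and 0.09 (edgeR, Benjamini-Hochberg adjusted p = 0.000339 and 0.00354). Rbl2, the p130 pocket protein, rose by 0.37 (SE 0.09, edgeR, Benjamini-Hochberg adjusted p = 0.00609). The call of E2f1 was lost with the neighbour offset (0.21), while those of E2f6, E2f4 and Rbl2 (0.48) were kept.

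The other 3 of these 7, named after their values were seen, were E2f5 (0.25), Rbl1 (0.23), the p107 pocket protein, and Tfdp2 (0.24), a dimer partner of the E2Fs, all higher. Each lost its call in several fits that left out a library. For E2f5 these were the fits that left out METTL7A1 replicate 1 (0.21), METTL7A1 replicate 2 (0.24), mock replicate 1 (0.24) or mock replicate 3 (0.22). For Rbl1 they left out METTL7A1 replicate 2 (0.24), METTL7A1 replicate 3 (0.18), mock replicate 1 (0.23) or mock replicate 2 (0.20). Tfdp2 lost it without the same libraries as Rbl1, at 0.19, 0.25, 0.25 and 0.23 in that order, and also with DESeq2 (0.25) and without an abundance filter (0.28). With the neighbour offset E2f5 (0.14) and Rbl1 (0.07) were not called.

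Of 6 kinases and activators 4 were called, again against 42.1% of all genes. The list held the subunits of the CDK-activating kinase, which phosphorylates CDK4, CDK6 and CDK2. Ccnh, its cyclin, fell from 20.9 ± 0.443 to 12.5 ± 0.415 cpm (SD, n = 3), a log2 fold change of -0.75 (SE 0.09, edgeR, Benjamini-Hochberg adjusted p = 5.78e-05). Mnat1, the assembly factor, fell by 0.47 and Cdk7, the kinase, fell by 0.28 on the log2 scale, with SE of 0.10 and 0.08 (edgeR, Benjamini-Hochberg adjusted p = 0.00355 and 0.0194). Only Ccnh was still called with the neighbour offset (-0.44), whereas Mnat1 was at 0.03 and Cdk7 at -0.17. The call of Cdk7 was also lost when METTL7A1 replicate 1 (-0.25), 2 (-0.30) or 3 (-0.26) or mock replicate 3 (-0.20) was left out, and without an abundance filter (-0.24). Cdk2, the partner of cyclin E, rose by 0.31 (SE 0.08, edgeR, Benjamini-Hochberg adjusted p = 0.0111), and turned to -0.12 with the neighbour offset, at which it was not called.

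Of 6 genes of cyclin and inhibitor turnover 1 was called, where 42.1% of all genes were, too few genes to read the count as a result. This was Ambra1, whose product directs D-type cyclins to degradation (0.32, SE 0.11, edgeR, Benjamini-Hochberg adjusted p = 0.0369). Its groups overlapped, and it was no longer called when METTL7A1 replicate 1 (0.28), METTL7A1 replicate 2 (0.32), mock replicate 1 (0.25) or mock replicate 2 (0.26) was left out, with upper quartile scaling (0.32) and with the neighbour offset (0.18). Skp2, which directs p27 to degradation, was at -0.18 (SE 0.07) and not called (edgeR, Benjamini-Hochberg adjusted p = 0.0736). Of 4 listed genes of the MuvB core, which pocket proteins join in the DREAM repressor complex, 1 was called, against 42.1% of all genes. This was Lin52, which was lower (-0.51, SE 0.15, edgeR, Benjamini-Hochberg adjusted p = 0.0179). Lin52 lost its call without METTL7A1 replicate 2 (-0.48), without mock replicate 3 (-0.32) and with the neighbour offset (-0.05).

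Myc, which acts upstream of the D-type cyclins and Cdk4, had 168.0, 176.3 and 175.7 cpm in METTL7A1 replicates 1 to 3 and 149.7, 147.9 and 141.7 cpm in mock replicates 1 to 3. The groups did not overlap, and Myc rose by 0.24 on the log2 scale (SE 0.07, edgeR, Benjamini-Hochberg adjusted p = 0.0122). The value was also 0.24 with the neighbour offset, and the call was lost without METTL7A1 replicate 2 (0.23).

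Downstream of RB, 22 textbook targets of E2F were tested, and 11 were called (50%, against 42.1% of all genes), 3 higher and 8 lower. Their median log2 fold change was -0.10. Rrm2, a subunit of ribonucleotide reductase, fell from 251.7 ± 19.4 to 165.2 ± 5.17 cpm (SD, n = 3), a log2 fold change of -0.61 (SE 0.08, edgeR, Benjamini-Hochberg adjusted p = 0.000117). Cdc6, which loads the replicative helicase, fell by 0.43 (SE 0.07). The helicase subunits Mcm5 and Mcm2 fell by 0.50 and 0.38 on the log2 scale, with SE of 0.08 and 0.09. Of the other subunits, named after their values were seen, Mcm3 (-0.30) and Mcm7 (-0.27) were also called as lower. Mcm4 (0.11) and Mcm6 (-0.09) were not called. The called targets that were higher were E2f8 (0.34, SE 0.07), a repressive E2F, and E2f7 and Pola1, named after their values were seen. E2f7 (0.28, SE 0.08) is a close relative of E2f8, and Pola1 (0.37, SE 0.09) encodes the catalytic subunit of DNA polymerase alpha. Ccna2, the cyclin of S phase, was at -0.10 (SE 0.08) and not called (edgeR, Benjamini-Hochberg adjusted p = 0.369).

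With the neighbour offset 5 of the 22 E2F targets were called (22.7%, against 31.5% of all genes), 1 higher and 4 lower. Cdc6 (-0.37), Mcm5 (-0.28), Mcm2 (-0.32) and E2f8 (0.43) were among them, whereas Rrm2 (-0.10), Pola1 (0.19) and E2f7 (-0.06) were not. The call of E2f7 was also lost without mock replicate 1 (0.27) or 2 (0.27), and 7 of the 22 targets were called in each of those fits. Over all genes these 2 fits called 4251 and 4602, fewer than the 5537 of the main fit.

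**Figure D5:**
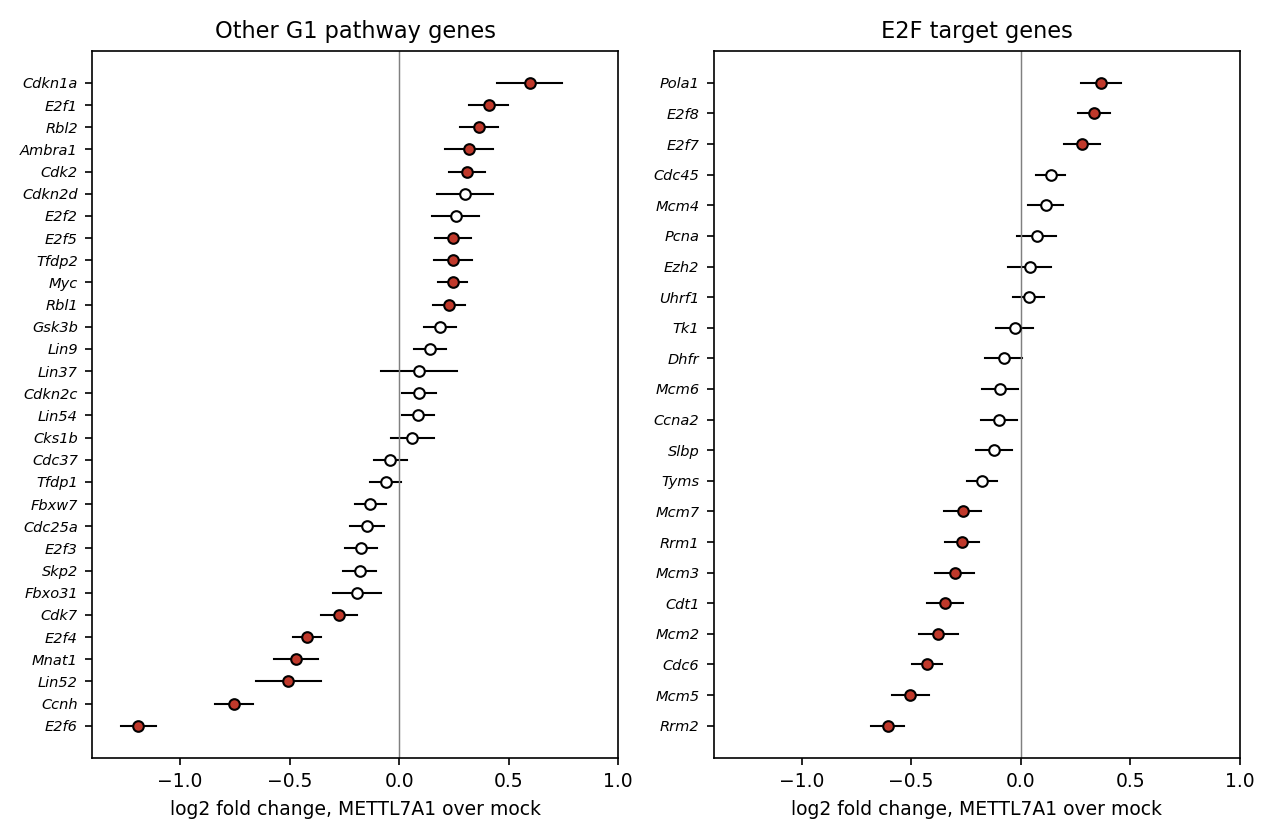
Log2 fold change, METTL7A1 over mock, of the 30 tested genes of the other G1 pathway list (left) and of the 22 E2F targets (right), with bars of 1 SE (red, adjusted p under 0.05; white, not called). E2f6 (-1.19) and Ccnh (-0.75) lie lowest on the left and Cdkn1a (0.60) highest; Rrm2 (-0.61) lies lowest on the right.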

How the data were processed

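Total RNA of 6 libraries, 3 METTL7A1 and 3 mock, was measured by stranded sequencing. The authors trimmed reads with BBDuk, aligned them to the mouse genome (mm10) with STAR 2.5.3a and counted them per gene with featureCounts. The deposited values are these raw counts, not normalized. Their settings for strand and for reads with several alignments are not given in the sources used here. Counting by strand is seen at AY036118, which lies inside Gm42418 on the other strand and exceeded it in every library. The deposited table also gives coordinates and the exon length per gene, an annotation value used for RPKM.

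Sample titles gave the groups and replicate numbers. Tests were run with edgeR 4.0.16 under R 4.3.3 (TMM scaling, glmQLFit and glmQLFTest, no covariate), with the study's filter of at least 1 cpm in at least 3 libraries (13166 of 48587 genes) and Benjamini-Hochberg adjustment over all of them. The scripts were tested on simulated data. The precision at 0 is a floor of 3 counts, 0.102 to 0.164 cpm per library. Each library was counted as 1 sample because the study describes biological triplicates. Replicates of a group differed by more than sampling noise (chi-square per degree of freedom 20.5 to 235, with AY036118 included). That difference cannot tell separate cultures from separate library preparations of 1 culture. The log fold change threshold of the study, whose base is not given, was read as log2. Neighbours were the 40 nearest genes with an average log2 cpm over 2.

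The members and the gene lists were chosen with earlier results of these data known. Named were all members, at most 4 called genes of each pathway group and 5 E2F targets by smallest p, genes of the list at 0 or under the filter, and the 3 genes nearest to Ccnd2 in pattern. Cdkn2c, Cdkn2d, Skp2, Ccna2, E2f5, Rbl1, Tfdp2, E2f7, Pola1, Mcm3, Mcm4, Mcm6, Mcm7 and the genes around Cdkn2b were named after their values were seen. Alternatives were RLE and upper quartile scaling, no filter, at least 10 counts in every library, DESeq2 1.42.0, voom of limma 3.58.1, the replicate block, the neighbour offset and omission of each library. Promoters came from RefSeq (GRCm38.p6).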

Additional observations from a re-analysis of the deposited data

How the results depend on the processing

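Ccnd2, Ccne2 and Ccnd1 kept their direction and their side of the threshold under all 14 alternatives, though Ccnd1, not called in any, came to -0.02 with the neighbour offset. The number of called G1 genes, 3 of 9, was 5 without an abundance filter, 5 with DESeq2 and 5 with the neighbour offset, and 2 to 6 when each library was left out (2 without METTL7A1 replicate 2, 6 without METTL7A1 replicate 1). The calls over all genes, 5537 in the main fit, moved as well. They were 5988 without a filter, 5275 with DESeq2, 4147 with the offset, 3761 without METTL7A1 replicate 2 and 5373 without METTL7A1 replicate 1. Cdk4 was called with upper quartile scaling (0.22), without a filter (0.25) and with DESeq2 (0.22), and reversed with the offset (-0.36). Cdk6 was called with DESeq2 (-0.17). Rb1 was called without a filter (0.37), with voom (0.34) and with the offset (0.60). With each library left out in turn, the log2 fold change ranged from -0.21 (without mock replicate 3) to -0.048 (without METTL7A1 replicate 1) for Ccnd1, 0.0946 to 0.26 for Ccnd3, 0.38 to 0.66 for Ccne1, 0.14 to 0.28 for Cdk4, -0.0025 to 0.10 for Cdkn1b and 0.27 to 0.42 for Rb1. The 15 called genes of the other G1 list became 8 with the offset and 8 to 15 with a library left out (8 without METTL7A1 replicate 2), and the 11 E2F targets became 5 and 7 to 12 (7 without mock replicate 1 or 2). Without mock replicate 1 or 2 the calls over all genes were 4251 and 4602, also fewer than in the main fit. Mnat1 (0.0258), Cdk2 (-0.12) and E2f7 (-0.0638) reversed with the offset. Cdk2 and E2f7 lie on chromosome 10, as does Cdk4, and had neighbour medians of 0.44 and 0.34. Mnat1, Lin52, Rrm2 and E2f6 lie on chromosome 12 and had neighbour medians of -0.50, -0.45, -0.50 and -0.46. The cause of these shifts was not tested.

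Libraries of the same number did not consistently deviate together (correlations -0.15, 0.20 and -0.37). The sources do not say whether the numbers pair libraries, and these correlations have no reference to decide it. With the replicate block 4810 of all genes, 3 members, 12 other G1 genes and 11 E2F targets were called, and Ambra1 (0.33), E2f5 (0.25) and Tfdp2 (0.24) lost their calls. All genes called, 5537, ranged from 3761 without METTL7A1 replicate 2 to 5988 over the alternatives. The share differences kept their direction, though their size depended on the division by length. Counts not divided by length gave larger differences for Ccnd1 (3.99 points) and Cdk4 (6.49) and a smaller one for Ccne1 (15.6). Cdkn2b, at 0 counts, gave no fold change under any alternative, and depth limits what can be said of it to the floor of 3 counts.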

Other observations

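Between Mtap and Dmrta1, where Cdkn2a and Cdkn2b had no counts, a few transcripts of unnamed genes were found at low counts; they were chosen after their values were seen. Gm12606, 70.6 kb before Cdkn2b, had 17, 35 and 30 counts in the METTL7A1 libraries (replicates 1 to 3) and 9, 7 and 9 in the mock libraries. Gm12610, 116 kb after it, had 10, 8 and 7 counts in the METTL7A1 libraries and 1, 1 and 4 in the mock libraries. Both lay under the abundance filter and were not tested. Their groups did not overlap in counts, and 51.6% of all tested genes had groups that did not overlap in cpm. Gm12608, 136 kb after Cdkn2b, had 41, 48 and 25 counts in the METTL7A1 libraries and 9, 8 and 26 in the mock libraries, so that mock replicate 3 reached the METTL7A1 range. Its log2 fold change was 1.32 (SE 0.41, edgeR, Benjamini-Hochberg adjusted p = 0.0236). It was no longer called when METTL7A1 replicate 1 (1.07), METTL7A1 replicate 2 (1.30), mock replicate 1 (1.21) or mock replicate 2 (0.98) was left out. Over 13 alternatives its adjusted p ran from 0.000192 to 0.0849.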
